A study of Mus musculus with 9 samples.

Results

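The ligands and receptors of axon guidance were examined in primary tumours of 3 mouse mammary cancer models. They were chosen by gene symbol, not by expression: class 3 to 7 semaphorins (*Sema*), plexins (*Plxn*) and neuropilins (*Nrp*), *Slit* and *Robo* genes, netrins (*Ntn*) and their *Unc5* receptors, Eph receptors, and ephrins (*Efn*). Of the 14108 genes in the count tables, 58 belonged to these families. The RefSeq gene table held 68 such genes. Those not among the counts were *Epha1*, *Epha3*, *Epha4*, *Epha5*, *Epha6*, *Epha10*, *Ntn5*, *Robo3*, *Sema3d* and *Unc5d*, so 6 of 14 Eph receptors were not measured here, whereas all 8 ephrins and all 11 plexins and neuropilins were.

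The 9 libraries came from 3 tumours each of HR1, LM1 and LM9. HR1 is a non-metastatic line from a mammary tumour of a transgenic mouse that expressed *PIK3CA* H1047R, an activated form of the PI3K catalytic subunit, from the broadly active CAG promoter. LM1 and LM9 were each grown out of a lung metastasis of HR1 cells that carried the doxycycline-inducible *piggyBac* transposon, so they share the *PIK3CA* allele and in addition carry the mutagenesis system and whatever insertions it left. The cells (250000 in Matrigel and PBS) were placed in the mammary fat pad of female NOD/SCID mice 4 to 8 weeks old (strain spelled NOD.CB17-Prkcd<scid>/J in the labels), which lack T and B cells but keep their stroma, vessels and myeloid cells. Tumours were taken before 1500 mm3 and GFP-positive cells were sorted for stranded mRNA sequencing. The study calls LM1 and LM9 *Nfib* high-expression models, after the transcription factor nuclear factor IB, and HR1 a low-expression model. Each model is 1 line, and the labels do not say that the tumours of a model came from separate mice. The p-values below therefore measure the spread between these tumours.

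Axon guidance molecules steer growing nerve fibres, and the same molecules position cells, vessels and epithelial sheets outside the nervous system. Semaphorins signal through plexins, and the secreted class 3 semaphorins mostly need a neuropilin as coreceptor, which also binds VEGF. Slit proteins repel cells through Robo receptors. Netrins act through DCC, neogenin and the UNC5 receptors. Eph receptors form the largest family of receptor tyrosine kinases; their ephrin ligands are membrane-bound, so that the receptor and the ligand signal into both of the touching cells. In the mammary gland, netrin 1, SLIT2 and Eph-ephrin pairs are known for their part in duct formation and the ordering of the epithelial layers.

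Total counts per tumour lay between 32393958 and 46681945, and values are given in CPM, read counts scaled to a common library total with TMM factors. All 58 genes passed the filter on low counts. Their mean expression over the 9 tumours was at least 100 CPM for 10 genes, 10 to 100 CPM for 21, 1 to 10 CPM for 18 and under 1 CPM for 9. The HR1 tumours were uneven. For the 49 genes that averaged 1 CPM or more, the median coefficient of variation was 49.6% in HR1, 13.1% in LM1 and 12.1% in LM9. The library labelled HR1 replicate 1 stood apart from the other two: its *Nfib* was 1340 CPM against 23.9 and 18.3 CPM in replicates 2 and 3, and 421 to 791 CPM in the LM tumours. Of the 48 axon guidance genes with at least 1 CPM in HR1, 10 were over 4-fold below both other HR1 tumours and 2, *Sema3f* and *Sema4d*, over 4-fold above both. Counts of genes that differed, and the values of genes whose call against HR1 changed or whose fold moved by over 1.5 times without this library, are therefore also given without it.

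The labels call the samples a breast cancer cell line, yet several defining markers of mammary epithelium were close to 0. *Epcam* reached 4.49 CPM at most, *Cdh1* 1.2 CPM and *Krt18* 2.48 CPM, and *Krt8* and *Elf5* were not among the listed genes. The oestrogen receptor gene *Esr1* was 7.46 to 68.6 CPM in HR1, 31.1 to 33.6 CPM in LM1 and 43.4 to 46.5 CPM in LM9. The 8 listed markers of 10 summed to 43.0 to 129 CPM in HR1, 191 to 213 CPM in LM1 and 58.8 to 62.6 CPM in LM9. The myoepithelial keratin gene *Krt14* was present at 152 to 175 CPM in LM1, 12.2 to 15.4 CPM in LM9 and 1.56 to 109 CPM in HR1, and the collagen gene *Col1a1* was at 6360 CPM or more in every tumour. Marker lists of other cells the sort could hold also moved with the models. The summed level of 10 fibroblast and pericyte markers was 23400 to 35300 CPM in HR1, 10400 to 13800 CPM in LM1 and 8980 to 10500 CPM in LM9. For 10 leukocyte markers it was 160 to 644, 128 to 138 and 188 to 216 CPM, and for the 9 endothelial markers of 10 that were listed, 21.6 to 51.9, 174 to 236 and 271 to 306 CPM. Of the endothelial sum in LM tumours, *Cdh5* and *Kdr* made up most, while *Pecam1*, *Tie1*, *Emcn*, *Cldn5* and *Vwf* were at or under 1.25 CPM there. Of the leukocyte sum in LM9, *Cd68* made up 107 to 138 CPM, against 15.9 to 17.9 CPM in LM1. *Csf1r*, *Cd14*, *Lyz2*, *Tyrobp*, *Fcer1g* and *Aif1* were lower in every LM9 tumour than in every LM1 tumour. *Ptprc*, *Adgre1* and *Itgam* overlapped between these models. In bulk libraries a smaller number of cells of a type and less RNA per cell cannot be told apart.

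**Figure D1:**
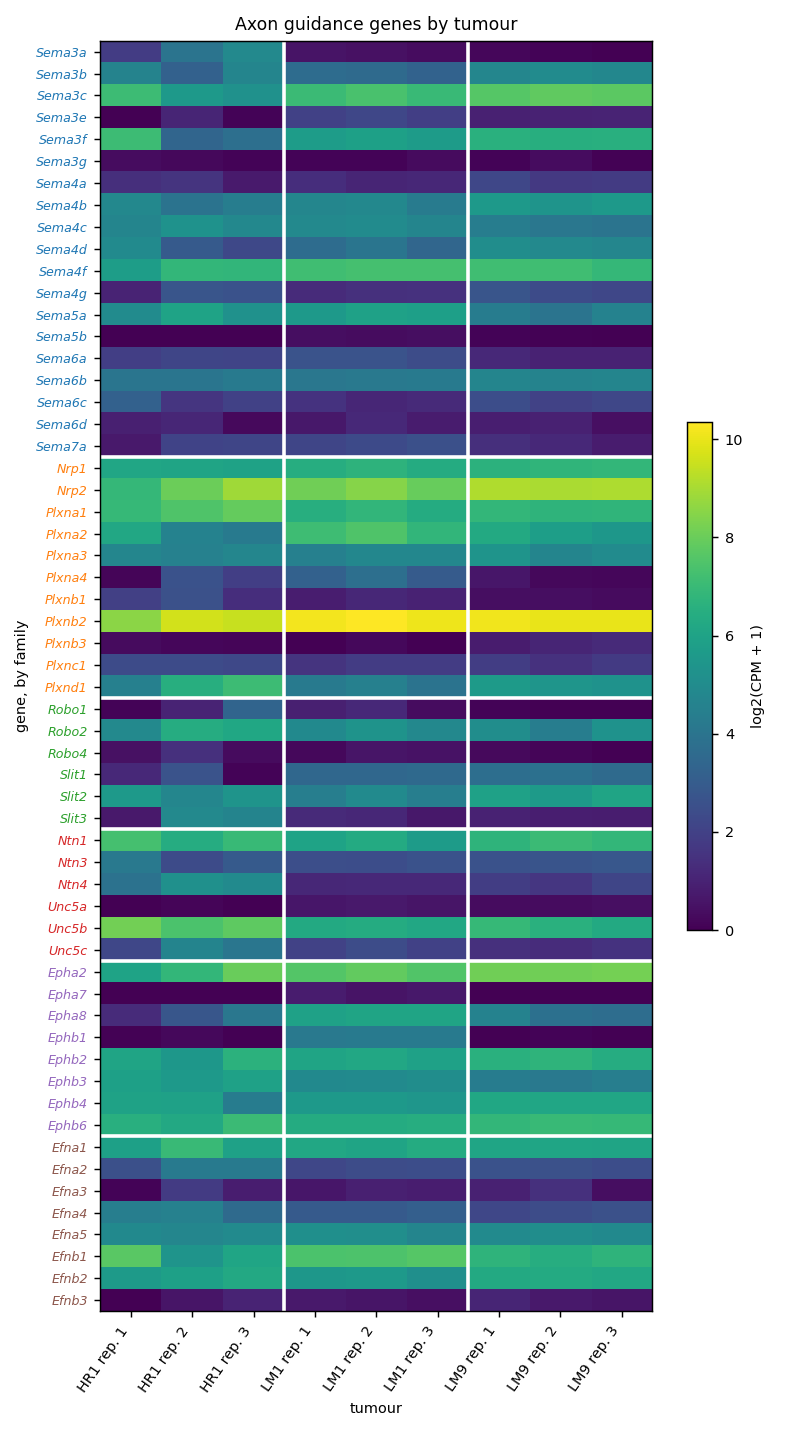
Expression of the 58 axon guidance genes (rows, grouped and coloured by family) in the 9 tumours (columns) as log2(CPM + 1), from dark (0) to bright (high). *Plxnb2* is the brightest row in all 9 tumours, the 3 HR1 columns differ among themselves more than the LM columns do, and *Ephb1* is visible in the 3 LM1 tumours alone.

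In LM1 versus HR1, 22 of the 58 genes differed (37.9%), 8 higher and 14 lower, with an adjusted p-value under 0.05 (quasi-likelihood test of edgeR, Benjamini-Hochberg adjustment over 14086 genes). Among all genes 35.5% differed, 16.7% higher and 18.7% lower. In LM9 versus HR1, 24 genes differed (41.4%), 7 higher and 17 lower, against 42.3% of all genes, of which 20.4% were higher and 21.9% lower. In LM9 versus LM1, 16 genes differed (27.6%), 7 higher and 9 lower, against 22.0% of all genes, 11.5% higher and 10.6% lower. With limma-voom, the study's own framework, 12 of 24 genes that differed were higher in LM1 and 11 of 23 in LM9, so directions were about even there. With DESeq2, 12 of 29 were higher in LM1 and 9 of 27 in LM9, so the lean towards lower genes stayed. The split of all genes by direction is not given for these 2 fits. Against HR1 the axon guidance genes as a whole thus differed about as often as other genes. The median log2 fold change of the 58 genes was −0.11, −0.07 and 0.11 in the 3 comparisons, beside −0.04, −0.05 and 0.0 for all genes tested. The first was 0.01 and the second 0.19 with limma-voom, and the second also turned positive without HR1 replicate 1 (0.08), HR1 replicate 2 (0.14) or LM9 replicate 3 (0.19).

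The 3 tumours of both models did not overlap for 26 of 58 genes in LM1 versus HR1 (44.8%, all genes 45.6%), 29 in LM9 versus HR1 (50.0%, all genes 53.3%) and 40 in LM9 versus LM1 (69.0%, all genes 63.0%). An exact permutation test of 3 against 3 tumours cannot give less than 0.1, which each of these genes reached. Without the library labelled HR1 replicate 1, 30 genes differed in LM1 versus HR1 (51.7%, all genes 52.8%) and 32 in LM9 versus HR1 (55.2%, all genes 55.7%). LM9 and LM1 then differed in 35 genes (60.3%, all genes 45.5%), although no LM tumour had been removed; the fit estimates 1 spread over all 3 models. With the 6 LM tumours alone, 38 of 56 genes tested differed between LM9 and LM1 (67.9%, all genes 56.3%). LM1 and LM9 were compared with the same HR1 tumours, so their differences from HR1 are not independent of each other.

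**Figure D2:**
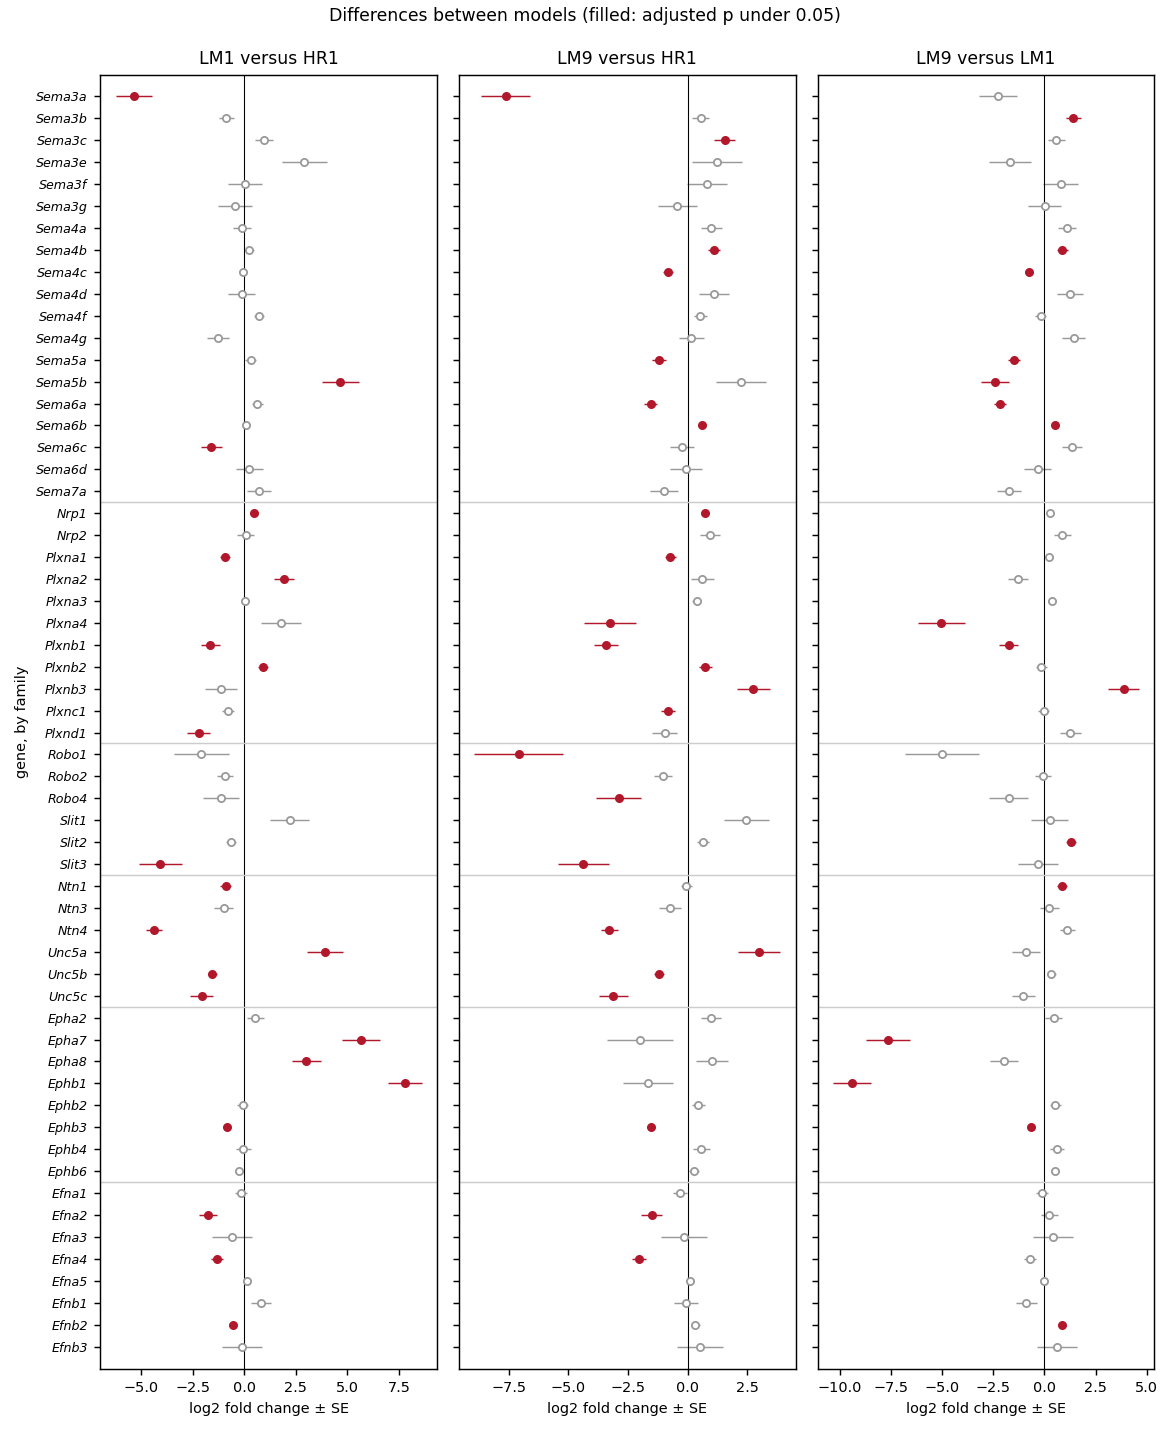
Log2 fold change with its standard error (horizontal bars) of each of the 58 axon guidance genes in LM1 versus HR1, LM9 versus HR1 and LM9 versus LM1; filled red points passed an adjusted p of 0.05 in edgeR's test, and grey lines separate the families. Filled points left of 0 outnumber those right of 0 in both comparisons with HR1 (14 against 8, and 17 against 7). In limma-voom's fit, not drawn here, directions were about even, with 12 of 24 and 11 of 23 higher. *Ephb1* has the widest difference, to the right in LM1 versus HR1 and to the left in LM9 versus LM1.

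Since the study describes the models by their *Nfib* expression, the promoters of these genes were searched for the binding motif of the NFI family. RefSeq promoters of 300 bases (250 before and 50 after a start site, GRCm38.p6) were at hand for 50 of the 58 genes, 66 promoters in all. The full motif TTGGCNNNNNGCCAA was in 0 of the 66 and in 12 of 32851 promoters of all genes (0.0365%). The half-site TTGGC, read on either strand and contained in the full motif, was in 26 of the 66 (39.4%, from 22 genes) and in 46.7% of all promoters. A match is a run of letters and not a measured site. Of the 26 genes that the selection rule named, 23 had a promoter in the table and 9 of these held a half-site. The promoters below belong to the Eph receptor genes with the clearest differences between models and to *Ntn4*, the netrin gene that fell most. They are shown so that the start regions of genes that rose in LM1 (*Ephb1*, *Epha8*) can be set beside those of genes that fell (*Ephb3*, *Ntn4*). Capitals mark the half-site, written GCCAA where it lies on the other strand.
Ephb1, chr9:102354644-102354943, minus strand: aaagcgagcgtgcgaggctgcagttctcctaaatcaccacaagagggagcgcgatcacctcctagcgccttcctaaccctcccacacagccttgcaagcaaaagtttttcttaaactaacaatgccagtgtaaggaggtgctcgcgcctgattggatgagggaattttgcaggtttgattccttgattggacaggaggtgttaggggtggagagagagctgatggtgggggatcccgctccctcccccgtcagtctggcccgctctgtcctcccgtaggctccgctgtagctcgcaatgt
Epha8, chr4:136956767-136957066, minus strand: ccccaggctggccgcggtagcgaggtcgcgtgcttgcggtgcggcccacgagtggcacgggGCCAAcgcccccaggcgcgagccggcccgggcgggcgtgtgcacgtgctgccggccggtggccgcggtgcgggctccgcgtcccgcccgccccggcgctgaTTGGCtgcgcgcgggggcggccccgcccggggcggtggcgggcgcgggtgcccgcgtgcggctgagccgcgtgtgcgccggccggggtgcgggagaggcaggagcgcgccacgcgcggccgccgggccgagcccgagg
Ephb3, chr16:21204545-21204844, plus strand: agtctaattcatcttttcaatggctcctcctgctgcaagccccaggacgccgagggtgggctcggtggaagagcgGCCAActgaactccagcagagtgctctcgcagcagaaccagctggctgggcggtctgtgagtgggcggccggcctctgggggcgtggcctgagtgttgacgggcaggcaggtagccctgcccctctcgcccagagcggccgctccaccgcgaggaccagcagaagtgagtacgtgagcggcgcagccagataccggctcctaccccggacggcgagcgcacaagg
Ntn4, chr10:93640799-93641098, plus strand: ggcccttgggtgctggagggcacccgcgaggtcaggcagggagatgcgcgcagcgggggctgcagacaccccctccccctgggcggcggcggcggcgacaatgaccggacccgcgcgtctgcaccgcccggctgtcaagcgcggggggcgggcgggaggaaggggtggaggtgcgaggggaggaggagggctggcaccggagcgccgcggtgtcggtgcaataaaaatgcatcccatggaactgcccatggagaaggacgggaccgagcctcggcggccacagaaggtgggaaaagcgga
The *Epha8* promoter held 2 half-sites and the *Ephb3* promoter 1. Those of *Ephb1* and *Ntn4*, the genes with the largest differences of the 4, held none in these 300 bases.

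Of the 19 semaphorins, which are the ligands of the plexins and neuropilins, 3 differed in LM1 versus HR1 (1 higher), 7 in LM9 versus HR1 (3 higher) and 7 in LM9 versus LM1 (3 higher). These are 15.8%, 36.8% and 36.8% of the family, against 35.5%, 42.3% and 22.0% of all genes. The secreted repellent *Sema3a* (chr5:13124822-13603485) was nearly absent from the LM tumours. It was 2.63, 15.0 and 28.4 CPM in HR1 replicates 1 to 3, 0.462, 0.385 and 0.254 CPM in LM1, and 0.129, 0.0687 and 0.0225 CPM in LM9. Every HR1 tumour lay above every LM tumour, even the lowest, HR1 replicate 1. The log2 fold change was −5.37 ± 0.87 (SE) in LM1 versus HR1 (edgeR adjusted p = 0.0023) and −7.64 ± 1.01 in LM9 versus HR1 (edgeR adjusted p = 0.0008). Both calls held when any single tumour was left out, the values being −4.57 and −6.85 without HR1 replicate 3, and −8.31 in LM9 without LM9 replicate 1. The collagen gene *Col1a2*, a fibroblast marker, had a like pattern within HR1, with 44.2, 1470 and 2730 CPM, and 35.0 to 73.2 CPM in the LM tumours; others of the list did not, *Dcn* being 17600, 432 and 329 CPM in HR1. The part of these markers in the *Sema3a* result was not tested.

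*Sema3c*, a secreted ligand of neuropilins, went the other way. It was 136, 47.3 and 36.6 CPM in HR1, 134, 165 and 130 CPM in LM1 and 199, 229 and 213 CPM in LM9. The LM9 tumours lay above all HR1 tumours, whereas LM1 overlapped with HR1 through replicate 1. *Sema3c* was 2.92-fold higher in LM9 than in HR1 (log2 fold change 1.55 ± 0.43, edgeR adjusted p = 0.02), a call that was lost without HR1 replicate 2, LM9 replicate 2 or LM9 replicate 3. Without the library labelled HR1 replicate 1 this log2 fold change was 2.35 ± 0.17 (edgeR adjusted p = 4.4e-06). Between LM1 and HR1 its log2 fold change was 0.97 ± 0.43 (edgeR adjusted p = 0.11), and 1.78 ± 0.16 (edgeR adjusted p = 2.4e-05) without that library.

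*Sema3f*, which binds neuropilin 2, depended on that library altogether. It was 136 CPM in HR1 replicate 1 but 9.48 and 12.8 CPM in replicates 2 and 3, with 50.6 to 58.1 CPM in LM1 and 90.2 to 95.2 CPM in LM9. With all tumours its log2 fold change was 0.03 ± 0.84 in LM1 versus HR1 (edgeR adjusted p = 0.98) and 0.81 ± 0.84 in LM9 versus HR1 (edgeR adjusted p = 0.46). Without the library they were 2.28 ± 0.16 (edgeR adjusted p = 5.3e-06) and 3.06 ± 0.16 (edgeR adjusted p = 8.9e-07). *Sema4d*, the ligand of plexin B1, likewise had 29.9 CPM in HR1 replicate 1 and 6.73 and 3.76 CPM in the others, beside 9.83 to 15.2 CPM in LM1 and 25.8 to 32.8 CPM in LM9. It passed no comparison with all tumours and all 3 without that library (1.23 ± 0.27, edgeR adjusted p = 0.0042, in LM1 versus HR1; 2.47 ± 0.29, edgeR adjusted p = 9.9e-05, in LM9 versus HR1; 1.24 ± 0.23, edgeR adjusted p = 0.0023, in LM9 versus LM1).

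Among the transmembrane semaphorins, *Sema6a* and *Sema5a* separated LM9 from both other models. *Sema6a* was 2.76, 3.49 and 3.37 CPM in HR1, 5.23, 5.28 and 4.29 CPM in LM1 and 1.29, 0.984 and 1.01 CPM in LM9, so the 3 models did not overlap. It fell by 2.17 ± 0.28 on the log2 scale in LM9 versus LM1 (edgeR adjusted p = 0.002) and by 1.55 ± 0.28 in LM9 versus HR1 (edgeR adjusted p = 0.0029); LM1 differed from HR1 by 0.62 ± 0.27 (edgeR adjusted p = 0.1). *Sema5a*, which has both attractive and repulsive actions on axons, was 30.7, 64 and 36.4 CPM in HR1, 45.9, 59.6 and 55.8 CPM in LM1 and 19.2, 14.7 and 23.0 CPM in LM9. All LM9 tumours were the lowest. Its log2 fold change was −1.50 ± 0.29 in LM9 versus LM1 (edgeR adjusted p = 0.009) and −1.20 ± 0.29 in LM9 versus HR1 (edgeR adjusted p = 0.011). The LM9 calls of *Sema6a* and *Sema5a* held with any single tumour left out.

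Smaller differences of LM9 were seen in class 4 and 6 genes. *Sema4b* was 2.16-fold higher in LM9 than in HR1 and 1.84-fold higher than in LM1, and *Sema6b* 1.51-fold and 1.45-fold higher. *Sema4c*, a ligand of plexin B2, was 1.76-fold and 1.66-fold lower, the former lost without LM9 replicate 3; opposite-strand genes overlap 7.27% of its exons. *Sema3b* differed in LM9 versus LM1 only, being 2.65-fold higher. For *Sema4b*, *Sema6b*, *Sema4c* and *Sema3b*, the call in LM9 versus LM1 was lost when any 1 of the 6 LM tumours was left out and kept when an HR1 tumour was. *Sema6c* was 8.25, 2.03 and 3.06 CPM in HR1, 1.83, 1.18 and 1.37 CPM in LM1 and 4.51, 3.09 and 3.58 CPM in LM9. Its lower level in LM1 than in HR1 (log2 fold change −1.60 ± 0.52, edgeR adjusted p = 0.039) rested on replicate 1, without which it was −0.79 ± 0.33 (edgeR adjusted p = 0.068), while the LM9 value went from −0.25 ± 0.50 to 0.55 ± 0.33 (edgeR adjusted p = 0.71 and 0.18). The call was also lost when any single LM tumour was left out.

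*Sema5b* was barely present, with 0, 1 and 0 counts in HR1, 14, 12 and 12 in LM1 and 4, 2 and 1 in LM9. It passed the filter on low counts through LM1 alone, so its calls and ratio describe it and are no separate support. It was called higher in LM1 than in HR1, with a ratio of 34.5 per total counts (95% exact interval 5.83 to 1400, for counting error only), and lower in LM9 than in LM1 (edgeR adjusted p = 0.037), which was lost without any single LM tumour. The ratio to HR1 rests on the single count of HR1 replicate 2, without which the fitted log2 fold change went from 4.66 to 6.62. Per length of exon, the semaphorin with the highest level was *Sema4f*, with 17.7 ± 6.55 CPM per kb in HR1, 28.9 ± 1.58 in LM1 and 25.6 ± 3.02 in LM9 (mean ± s.d., n = 3). All LM tumours had more than the HR1 tumours (117 to 159 CPM against 53.6 to 115 CPM), but neither comparison passed the test (edgeR adjusted p = 0.064 and 0.13). *Sema3e* (edgeR adjusted p = 0.065 in LM1 versus HR1), *Sema3g*, *Sema4a*, *Sema4g*, *Sema6d* and *Sema7a* passed it in no comparison with all tumours. Without the library labelled HR1 replicate 1, *Sema4f* (0.44 ± 0.13, edgeR adjusted p = 0.017) and *Sema3e* (2.36 ± 0.73, edgeR adjusted p = 0.022) were higher and *Sema4g* (−1.72 ± 0.28, edgeR adjusted p = 0.00068) lower in LM1 than in HR1, and *Sema7a* (−1.44 ± 0.35, edgeR adjusted p = 0.0067) was lower in LM9 than in HR1. *Sema3e* rested more on HR1 replicate 2, without which its log2 fold change went from 2.91 to 6.11 in LM1 (edgeR adjusted p = 0.0011) and from 1.24 to 4.44 in LM9 (edgeR adjusted p = 0.0031).

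**Figure D3:**
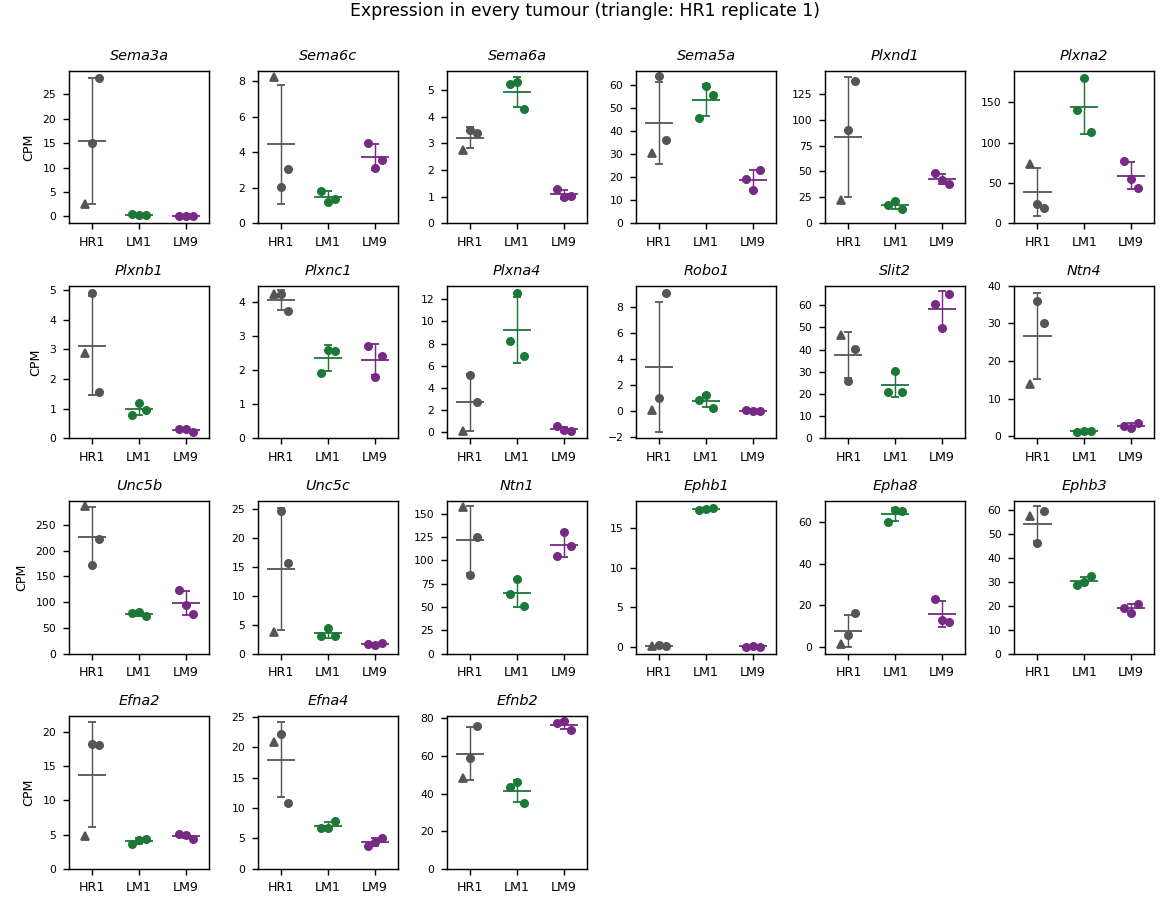
CPM in each tumour (points) of the 21 genes that the rule named for a difference, with the mean (horizontal line) and s.d. (vertical bar, n = 3) of each model; the triangle is the library labelled HR1 replicate 1 and each panel has its own linear axis. The HR1 tumours scatter widely for *Sema3a*, *Plxnd1*, *Robo1* and *Unc5c*, while *Ephb1* lies at 17.3 to 17.6 CPM in LM1 and under 0.2 CPM elsewhere.

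The plexins and neuropilins are the receptors of the semaphorins. Of these 11 genes, 6 differed in LM1 versus HR1 (3 higher), 7 in LM9 versus HR1 (3 higher) and 3 in LM9 versus LM1 (1 higher), or 54.5%, 63.6% and 27.3% (all genes 35.5%, 42.3% and 22.0%). *Plxnb2*, the receptor of class 4 semaphorins and of angiogenin, had the highest level per kb of all 58 genes, at 81.8 ± 29.8 CPM per kb in HR1, 153 ± 14.5 in LM1 and 137 ± 5.74 in LM9. In single tumours it was 372, 812 and 711 CPM in HR1, 1140, 1310 and 1100 CPM in LM1 and 1110, 1030 and 1030 CPM in LM9. Each LM tumour exceeded each HR1 tumour. *Plxnb2* was 1.87-fold higher in LM1 (log2 fold change 0.90 ± 0.26, edgeR adjusted p = 0.025) and 1.67-fold higher in LM9 (log2 fold change 0.74 ± 0.26, edgeR adjusted p = 0.045) than in HR1. Leaving out any LM1 tumour ended the LM1 call, and leaving out HR1 replicate 3 or any LM tumour ended the LM9 call. Without HR1 replicate 1 both stayed, at 0.64 ± 0.13 (edgeR adjusted p = 0.0023) and 0.48 ± 0.13 (edgeR adjusted p = 0.01).

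*Nrp1*, the coreceptor for SEMA3A and VEGF, rose in both LM models. It was 69.4, 65.4 and 60.9 CPM in HR1, 85.8, 102 and 82.2 CPM in LM1 and 99.1, 110 and 116 CPM in LM9, with no overlap of either LM model with HR1. The log2 fold change was 0.47 ± 0.13 in LM1 (edgeR adjusted p = 0.025) and 0.73 ± 0.13 in LM9 (edgeR adjusted p = 0.0032); the LM1 call was lost without HR1 replicate 3, LM1 replicate 1 or LM1 replicate 2. *Nrp2* was 117, 260 and 467 CPM in HR1, 278, 359 and 245 CPM in LM1 and 526 to 556 CPM in LM9. LM9 lay above every other tumour, yet *Nrp2* passed no comparison with all tumours (edgeR adjusted p = 0.094 versus HR1 and 0.15 versus LM1), and it gained a call in LM9 versus LM1 without HR1 replicate 1 (0.88 ± 0.21, edgeR adjusted p = 0.0088) and in LM9 versus HR1 without HR1 replicate 3 (edgeR adjusted p = 0.0085), where the log2 fold change of 0.94 ran from 0.58 to 1.52. The endothelial marker genes *Cdh5* and *Kdr* were also higher in LM tumours, at 136 to 254 CPM and 22.3 to 37.3 CPM against at most 13.4 and 1.73 CPM in HR1. Of the other endothelial markers *Egfl7* was 2.39 to 8.17 CPM in HR1 and 2.58 to 8.24 CPM in LM tumours, and *Pecam1* was 1.18 to 6.42 CPM in HR1 and 0.383 to 1.25 CPM in LM tumours. The part of these markers in the neuropilin results was not tested.

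Plexins of the A class, which pair with neuropilins or bind class 6 semaphorins directly, moved in different directions. *Plxna2* was 72.7, 23.3 and 18.1 CPM in HR1, 140, 181 and 113 CPM in LM1 and 77, 54.8 and 43.6 CPM in LM9. LM1 was above all other tumours, and *Plxna2* was 3.80-fold higher there than in HR1 (log2 fold change 1.93 ± 0.50, edgeR adjusted p = 0.018; lost without HR1 replicate 2 or LM1 replicate 2). In LM9 versus LM1 its log2 fold change was −1.31 ± 0.49 (edgeR adjusted p = 0.09), and in LM9 versus HR1 0.62 ± 0.49 (edgeR adjusted p = 0.33). Without the library labelled HR1 replicate 1 all 3 comparisons passed, at 2.81 ± 0.29 in LM1 versus HR1 (edgeR adjusted p = 6.2e-05), 1.5 ± 0.28 in LM9 versus HR1 (edgeR adjusted p = 0.0015) and −1.31 ± 0.24 in LM9 versus LM1 (edgeR adjusted p = 0.002). *Plxna1* was lower than in HR1 in both, 1.91-fold in LM1 and 1.66-fold in LM9, with 122, 179 and 242 CPM in HR1 and 81.5 to 114 CPM in the LM tumours. Its LM1 call was lost without LM1 replicate 1 or LM1 replicate 3, and its LM9 call without HR1 replicate 2, HR1 replicate 3, LM1 replicate 1 or any LM9 tumour. *Plxna3* stayed between 21.6 and 40.6 CPM in the 9 tumours and passed no comparison.

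*Plxna4*, a receptor for SEMA3A and class 6 semaphorins, was the plexin that differed most between the LM models. It was 0.0997, 5.18 and 2.75 CPM in HR1, 8.25, 12.6 and 6.86 CPM in LM1 and 0.537, 0.16 and 0.135 CPM in LM9. All LM1 tumours were the highest, and the HR1 tumours spanned from below the lowest LM9 tumour nearly to LM1. LM1 differed from HR1 by 1.78 ± 0.98 (edgeR adjusted p = 0.19), with 1.23 to 2.68 over the fits without 1 tumour. In LM9 versus LM1 it fell by 5.04 ± 1.16 on the log2 scale (edgeR adjusted p = 0.018; lost without LM1 replicate 1, LM9 replicate 2 or LM9 replicate 3). In LM9 versus HR1 the log2 fold change was −3.26 ± 1.09 (edgeR adjusted p = 0.039), but the tumours overlapped through HR1 replicate 1 and the call was lost when any tumour but that one was left out, the value being −2.36 without HR1 replicate 2 and −4.16 without LM9 replicate 1. Without LM9 replicate 1 the difference from LM1 was −5.94.

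*Plxnb1*, the receptor of SEMA4D, decreased in steps without overlap. It was 2.89, 4.91 and 1.57 CPM in HR1, 0.798, 1.20 and 0.965 CPM in LM1 and 0.322, 0.32 and 0.225 CPM in LM9. Its log2 fold change was −1.66 ± 0.46 in LM1 versus HR1 (edgeR adjusted p = 0.022), −3.42 ± 0.50 in LM9 versus HR1 (edgeR adjusted p = 0.0012) and −1.76 ± 0.48 in LM9 versus LM1 (edgeR adjusted p = 0.032). The second of these held with any tumour left out; the first was lost without HR1 replicate 2 or any LM1 tumour and the last without any LM tumour. Genes on the opposite strand overlap 2.68% of the *Plxnb1* exons and 10.7% of those of *Plxna1*, and the sources used here give no strand setting for the counting.

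*Plxnd1*, the vascular receptor of SEMA3E, was 22.1, 90.3 and 137 CPM in HR1, 17.5, 21.8 and 14.2 CPM in LM1 and 48.3, 41.7 and 38.0 CPM in LM9. LM1 was the lowest, close to HR1 replicate 1, and LM9 lay within the range of HR1. In LM1 versus HR1 it fell by 2.22 ± 0.54 on the log2 scale (edgeR adjusted p = 0.013; lost without LM1 replicate 1 or LM1 replicate 3), and by 2.66 ± 0.22 (edgeR adjusted p = 1.4e-05) without HR1 replicate 1. LM9 differed from HR1 by −0.96 ± 0.52 (edgeR adjusted p = 0.16), and without that library by −1.41 ± 0.21 (edgeR adjusted p = 0.00048), when LM9 was also higher than LM1 (1.25 ± 0.20, edgeR adjusted p = 0.00096). *Plxnc1*, which binds SEMA7A, was low throughout, with 3.73 to 4.23 CPM in HR1, 1.93 to 2.6 CPM in LM1 and 1.81 to 2.70 CPM in LM9. Neither LM model overlapped with HR1, but only LM9 passed the test (log2 fold change −0.82 ± 0.29, edgeR adjusted p = 0.047), and that call was lost without HR1 replicate 2 or any single LM tumour. *Plxnb3*, at most 1.33 CPM in any tumour, was 6.71-fold higher in LM9 than in HR1 and 14.8-fold higher than in LM1 (edgeR adjusted p = 0.014 and 0.0091). The latter log2 fold change was 3.88, and 5.35 without LM1 replicate 2. *Plxnb3* passed the filter on low counts through LM9 alone, so these values describe it and are no separate support.

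Of the 6 *Slit* and *Robo* genes, 1 differed in LM1 versus HR1 and 3 in LM9 versus HR1, all lower, and 1 in LM9 versus LM1, which was higher. Of all genes, 18.7% and 21.9% were lower in these comparisons with HR1, and 11.5% were higher in LM9 than in LM1. *Slit2*, a secreted repellent that also acts in mammary duct branching, was 46.6, 26.0 and 40.1 CPM in HR1, 20.7, 30.2 and 20.8 CPM in LM1 and 60.5, 49.5 and 65.0 CPM in LM9. LM9 was above every other tumour, and LM1 reached into the range of HR1. *Slit2* was 2.44-fold higher in LM9 than in LM1 (log2 fold change 1.29 ± 0.25, edgeR adjusted p = 0.0089), which held with any tumour left out. Against HR1 the log2 fold change was −0.65 ± 0.25 in LM1 (edgeR adjusted p = 0.066) and 0.63 ± 0.25 in LM9 (edgeR adjusted p = 0.065), the latter 0.82 ± 0.23 (edgeR adjusted p = 0.014) without HR1 replicate 1. The former was called without HR1 replicate 2 or LM1 replicate 2, with a lowest value of −0.87.

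*Slit3* was high in HR1 replicates 2 and 3 alone, with 28.3 and 24.2 CPM, against 0.632 CPM in replicate 1, 0.61 to 1.32 CPM in LM1 and 0.765 to 0.966 CPM in LM9. It was called lower in both LM models (log2 fold change −4.07 ± 1.06, edgeR adjusted p = 0.018, and −4.37 ± 1.08, edgeR adjusted p = 0.013) although replicate 1 lay within the LM1 range and below LM9. Without that library the values were −4.62 ± 0.30 and −4.94 ± 0.31, and the LM1 call was lost without any single LM1 tumour. The fibroblast marker *Postn* had 47.3 CPM in HR1 replicate 1 and 1370 and 1020 CPM in replicates 2 and 3, with 2.93 to 41.6 CPM in LM tumours. Within HR1 *Dcn*, *Fap* (48.1, 6.96 and 1.8 CPM) and *Pdgfra* (361, 180 and 106 CPM) of the same list ran the other way. The part of these markers in this result was not tested. *Slit1* was 1.26, 5.22 and 0.0772 CPM in HR1 and 9.93 to 13.2 CPM in all LM tumours, and passed no comparison (edgeR adjusted p = 0.1 in LM1 and 0.066 in LM9). Without HR1 replicate 2 its log2 fold change went from 2.20 to 3.96 in LM1 (edgeR adjusted p = 0.011) and from 2.46 to 4.22 in LM9 (edgeR adjusted p = 0.0078), and without HR1 replicate 3 both comparisons passed as well.

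The receptor *Robo1* was counted 2, 46 and 355 times in HR1, 41, 56 and 11 times in LM1 and 3, 0 and 0 times in LM9. Its level in HR1 thus rested on replicate 3, with 9.13 CPM, against 0.0665 and 1.04 CPM. In LM9 versus HR1 it was called lower (edgeR adjusted p = 0.016), with an HR1 to LM9 ratio of 159 per total counts (95% exact interval 54.0 to 774, counting error only). The call was lost without LM9 replicate 2 or LM9 replicate 3, and the fitted log2 fold change of −7.09 was −4.51 without HR1 replicate 3 and −10.15 without LM9 replicate 1. LM1 differed from HR1 by −2.08 ± 1.34 (edgeR adjusted p = 0.25), with values from −2.64 (called, edgeR adjusted p = 0.036, without HR1 replicate 1) to 0.50 (without HR1 replicate 3), a change of sign. *Robo4*, the endothelial member, was at most 1.71 CPM and 7.46-fold lower in LM9 than in HR1 (edgeR adjusted p = 0.037; lost without HR1 replicate 2, LM1 replicate 2, LM1 replicate 3 or any LM9 tumour; log2 fold change −2.90, with −1.57 without HR1 replicate 2 and −3.72 without LM9 replicate 1). *Robo2* had the highest level per kb of the family, at 3.62 ± 1.73 CPM per kb in HR1, 1.87 ± 0.379 in LM1 and 1.77 ± 0.548 in LM9. In single tumours it was 28.7, 85.2 and 70.3 CPM in HR1 and 19.8 to 39.2 CPM in LM tumours, which overlapped with replicate 1. It passed no comparison with all tumours, and both against HR1 without that library (−1.28 ± 0.26, edgeR adjusted p = 0.0026, and −1.37 ± 0.26, edgeR adjusted p = 0.0017).

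Of the 6 netrin and *Unc5* receptor genes, 5 differed in LM1 versus HR1 (4 lower) and 4 in LM9 versus HR1 (3 lower), and 1, higher, in LM9 versus LM1. Among all genes 35.5%, 42.3% and 22.0% differed in these comparisons. Of all genes, 18.7% were lower in LM1 and 21.9% in LM9 than in HR1, and 11.5% were higher in LM9 than in LM1. *Ntn4* (chr10:93641049-93745972), a basement membrane netrin whose promoter is printed above, was 13.8, 36.0 and 30.2 CPM in HR1, 1.24, 1.31 and 1.27 CPM in LM1 and 2.70, 2.08 and 3.47 CPM in LM9. The lowest HR1 tumour was well above the highest LM tumour. *Ntn4* was 20.9-fold lower in LM1 (log2 fold change −4.38 ± 0.40, edgeR adjusted p = 0.0002) and 9.68-fold lower in LM9 (log2 fold change −3.28 ± 0.37, edgeR adjusted p = 0.00042). With single tumours left out these ranged from −4.69 to −4.11 and from −3.58 to −3.0, and no call was lost. With all tumours the difference between LM9 and LM1 did not pass (log2 fold change 1.11 ± 0.36, edgeR adjusted p = 0.055). It passed without the library labelled HR1 replicate 1 (1.10 ± 0.21, edgeR adjusted p = 0.0027) and without HR1 replicate 2.

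The receptor *Unc5b* had the highest level per kb of the family, with 36.3 ± 9.11 CPM per kb in HR1, 12.4 ± 0.699 in LM1 and 15.7 ± 3.74 in LM9. It was 286, 173 and 223 CPM in HR1, 78.0, 81.6 and 72.9 CPM in LM1 and 123, 94.5 and 76.6 CPM in LM9. Neither LM model overlapped with HR1. *Unc5b* fell by 1.55 ± 0.23 on the log2 scale in LM1 (edgeR adjusted p = 0.0014) and by 1.21 ± 0.22 in LM9 (edgeR adjusted p = 0.0034), and both calls held with any tumour left out. In contrast with *Sema3a*, *Slit3* and *Robo2*, the library labelled HR1 replicate 1 was the HR1 tumour farthest from the LM models here.

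*Unc5c* was 3.66, 24.6 and 15.6 CPM in HR1, 3.11, 4.35 and 2.97 CPM in LM1 and 1.70, 1.46 and 1.89 CPM in LM9. LM9 was the lowest group, and LM1 overlapped with HR1 replicate 1. It fell by 3.12 ± 0.60 on the log2 scale in LM9 (edgeR adjusted p = 0.0041), which held with any tumour left out, and by 2.07 ± 0.57 in LM1 (edgeR adjusted p = 0.022), which was lost without HR1 replicate 2 or any LM1 tumour. Without HR1 replicate 2 these were −2.52 and −1.47. *Ntn1*, the secreted netrin of duct formation, was 157, 84.8 and 125 CPM in HR1, 64.1, 80.6 and 50.9 CPM in LM1 and 105, 131 and 115 CPM in LM9. LM1 was the lowest of the models. The log2 fold change was −0.91 ± 0.25 in LM1 versus HR1 (edgeR adjusted p = 0.02; lost without LM1 replicate 1 or LM1 replicate 3) and 0.85 ± 0.25 in LM9 versus LM1 (edgeR adjusted p = 0.04; lost without LM1 replicate 1, LM1 replicate 3 or any LM9 tumour). *Unc5a* was the exception in direction, but at most 27 counts in any tumour: 0, 4 and 0 in HR1, 20 to 27 in LM1 and 11 to 15 in LM9. It was called higher in both (edgeR adjusted p = 0.0094 and 0.025), and the LM9 call was lost without any single LM9 tumour. The 4 counts of HR1 replicate 2 set the fitted log2 fold changes, which were 3.91 and 3.00 with it and 7.53 and 6.61 without it. *Ntn3*, 17.4 CPM in HR1 replicate 1 and 4.19 to 6.72 CPM in the other tumours, passed no comparison with all tumours. Its log2 fold change went from −0.99 to −0.20 in LM1 and from −0.76 to 0.03 in LM9 without that library, whereas both comparisons passed without HR1 replicate 2 (edgeR adjusted p = 0.027 and 0.045).

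*Ephb1*, *Epha7* and *Epha8*, 3 of the 8 Eph receptor genes, were highest in LM1. Of the 8 genes, 4 differed in LM1 versus HR1 (3 higher), 1, lower, in LM9 versus HR1 and 3, all lower, in LM9 versus LM1; the shares of all genes were 35.5%, 42.3% and 22.0%. *Ephb1* (chr9:101922128-102354693), a receptor of B-class ephrins, was counted 825, 772 and 693 times in the LM1 tumours, or 17.3, 17.5 and 17.6 CPM. In the HR1 tumours it was counted 1, 7 and 1 times, and in LM9 0, 3 and 0 times. It was therefore a gene of LM1 tumours in these data, with HR1 and LM9 near 0. LM1 exceeded HR1 by 7.78 ± 0.82 on the log2 scale (edgeR adjusted p = 0.00035). The ratio of LM1 to LM9 was 820 per total counts (95% exact interval 280 to 3980) and that of LM1 to HR1 231 (122 to 506), for counting error only. Between LM9 and LM1 edgeR gave an adjusted p of 0.0006, and no call of *Ephb1* was lost with any tumour left out. *Ephb1* passed the filter on low counts through LM1 alone, so these values describe it and are no separate support. The fitted log2 fold change was 9.09 in LM1 versus HR1 without HR1 replicate 2, and in LM9 versus LM1 it went from −9.43 to −12.53 without LM9 replicate 2, the tumours that held most of the few counts. In LM9 versus HR1 it was −1.65 ± 1.05 (edgeR adjusted p = 0.23), and with single tumours left out it ran from −4.74 (edgeR adjusted p = 0.039, without LM9 replicate 2) to −0.34 (edgeR adjusted p = 0.84). An opposite-strand gene overlaps 2.17% of its exon bases.

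*Epha7* had the same distribution at a much lower level, with 35, 20 and 23 counts in LM1, 0, 0 and 1 in HR1 and 0 in each LM9 tumour. It too passed the filter on low counts through LM1 alone, so its ratios describe it and are no separate support. Its ratio of LM1 to HR1 was 70.8 (95% exact interval 12.3 to 2830; the fitted log2 fold change went from 5.66 to 7.66 without HR1 replicate 3, which holds the single HR1 count), and it was at least 8.95-fold higher in LM1 than in LM9, taken against 3 counts per library. *Epha8* (chr4:136929419-136956859), another A-class receptor, was 60.0, 65.5 and 65.3 CPM in LM1, against 1.40, 5.92 and 16.2 CPM in HR1 and 23.2, 13 and 11.9 CPM in LM9. LM1 stood far above both, and LM9 overlapped with HR1. *Epha8* was 8.08-fold higher in LM1 than in HR1 (log2 fold change 3.01 ± 0.71, edgeR adjusted p = 0.012), which held with any tumour left out and was 4.10 ± 0.62 without HR1 replicate 3. LM9 differed from HR1 by 1.03 ± 0.67 (edgeR adjusted p = 0.24), and by 2.12 ± 0.56 (edgeR adjusted p = 0.019) without that tumour. In LM9 versus LM1 its log2 fold change was −1.98 ± 0.68 (edgeR adjusted p = 0.068), and −1.99 ± 0.37 (edgeR adjusted p = 0.0031) without the library labelled HR1 replicate 1. *Tubb3*, a neuronal marker, was 74.0 to 80.2 CPM in LM1, 3.38 to 23.8 CPM in HR1 and 18.9 to 23.1 CPM in LM9, while the glial marker *Mbp* was at most 0.965 CPM in LM1. Of the 10 markers of Schwann cells and neurons 5 were listed, among them *S100b*, with 308 CPM in HR1 replicate 1 and at most 7.37 CPM in the other tumours. Their part in these results was not tested.

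*Ephb3* (chr16:21204620-21223309), a receptor known from cell sorting in epithelia, was the Eph gene lower in both LM models. It was 57.5, 46.1 and 59.6 CPM in HR1, 28.9, 29.8 and 32.3 CPM in LM1 and 19.2, 17.0 and 20.7 CPM in LM9, so the models were separate. It fell by 0.84 ± 0.15 on the log2 scale in LM1 versus HR1 (edgeR adjusted p = 0.0033), by 1.52 ± 0.15 in LM9 versus HR1 (edgeR adjusted p = 0.0002) and by 0.68 ± 0.15 in LM9 versus LM1 (edgeR adjusted p = 0.015). Both calls against HR1 held with any tumour left out. The last was lost without LM1 replicate 1, LM1 replicate 3, LM9 replicate 1 or LM9 replicate 2.

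*Epha2*, a receptor of A-class ephrins that many carcinoma cells express, had the highest level per kb among the Eph genes, with 30.5 ± 20.6 CPM per kb in HR1, 43.8 ± 5.38 in LM1 and 60.2 ± 1.95 in LM9. It was 63.1, 115 and 250 CPM in HR1, 188 to 233 CPM in LM1 and 276 to 292 CPM in LM9. LM9 was above all other tumours, but no comparison passed the test (edgeR adjusted p = 0.083 in LM9 versus HR1). Without HR1 replicate 3, the highest of the HR1 tumours, both LM models were above HR1 (1.20 ± 0.25, edgeR adjusted p = 0.0082, and 1.66 ± 0.26, edgeR adjusted p = 0.002). *Ephb2*, *Ephb4* and *Ephb6*, the last of which lacks kinase activity, also passed none with all tumours. Their LM9 tumours lay above the LM1 tumours without overlap, while 63.0% of all genes had no overlap between these models. In LM9 versus LM1, *Ephb6* passed without any single HR1 tumour (0.51 ± 0.18, edgeR adjusted p = 0.04, without HR1 replicate 1). *Ephb4* passed there without HR1 replicate 3.

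Of the 8 ephrins, 3 differed in LM1 versus HR1 and 2 in LM9 versus HR1, all lower, and 1, higher, in LM9 versus LM1. These shares, 37.5%, 25.0% and 12.5%, stand beside 35.5%, 42.3% and 22.0% of all genes, of which 18.7% and 21.9% were lower than in HR1. *Efna4*, a ligand of A-class Eph receptors, was 20.8, 22.2 and 10.9 CPM in HR1, 6.72, 6.68 and 7.85 CPM in LM1 and 3.67, 4.35 and 5.0 CPM in LM9. The 3 models did not overlap. It was 2.54-fold lower in LM1 (log2 fold change −1.34 ± 0.29, edgeR adjusted p = 0.0074) and 4.14-fold lower in LM9 (log2 fold change −2.05 ± 0.29, edgeR adjusted p = 0.0011) than in HR1, and both calls held with any tumour left out. An opposite-strand gene overlaps 10.5% of its exons.

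*Efna2* was 4.85, 18.3 and 18.1 CPM in HR1, 3.59, 4.26 and 4.42 CPM in LM1 and 5.15, 4.97 and 4.41 CPM in LM9. HR1 replicate 1 was at the level of the LM tumours. The log2 fold change was −1.75 ± 0.44 in LM1 (edgeR adjusted p = 0.016; lost without LM1 replicate 1 or LM1 replicate 2) and −1.51 ± 0.44 in LM9 (edgeR adjusted p = 0.024; lost without HR1 replicate 2, HR1 replicate 3 or any LM9 tumour). *Efnb2*, the ligand that marks arterial endothelium and pairs with EPHB4, was 48.3, 58.9 and 76.1 CPM in HR1, 43.6, 46.1 and 34.9 CPM in LM1 and 77.3, 78.5 and 73.9 CPM in LM9. LM1 lay below every other tumour. It was 1.84-fold higher in LM9 than in LM1 (log2 fold change 0.88 ± 0.18, edgeR adjusted p = 0.012; lost without LM1 replicate 3 or LM9 replicate 2) and 1.47-fold lower in LM1 than in HR1 (edgeR adjusted p = 0.042; lost without any tumour except HR1 replicate 1).

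*Efna1*, the main ligand of EPHA2, had the highest level per kb of the ephrins and did not pass in any comparison. It was 44.9 ± 22.3 CPM per kb in HR1, 40.0 ± 4.32 in LM1 and 36.3 ± 0.627 in LM9, with an adjusted p from edgeR of 0.42 or more. *Efnb1* depended on the library labelled HR1 replicate 1, which had 208 CPM against 40.1 and 66.1 CPM in the other HR1 tumours, 173 to 196 CPM in LM1 and 87.1 to 105 CPM in LM9. With all tumours it passed none of the 3 comparisons. Without that library it was higher in both LM models than in HR1 (log2 fold change 1.79 ± 0.21, edgeR adjusted p = 0.0001, and 0.90 ± 0.20, edgeR adjusted p = 0.004) and lower in LM9 than in LM1 (−0.89 ± 0.17, edgeR adjusted p = 0.0029). *Efna5* was 25.0 to 34.9 CPM in all 9 tumours. *Efna3* and *Efnb3* were at most 2.45 CPM and passed no comparison.

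Known ligand and receptor pairs were set side by side in CPM per kb of exon, so that levels of different genes can be roughly compared. The length used was that of all annotated exons of a gene. Which transcripts the tumours made was not determined, so levels per kb of different genes also depend on the annotation. For SEMA3A and its coreceptor, the ligand gene was 1.11 ± 0.929 in HR1, 0.0265 ± 0.00759 in LM1 and 0.00529 ± 0.00384 in LM9 (CPM per kb, mean ± s.d., n = 3), while *Nrp1* was 6.67 ± 0.432, 9.21 ± 1.09 and 11.1 ± 0.88. For *Ntn4* the level was 7.12 ± 3.08, 0.341 ± 0.01 and 0.735 ± 0.185, and its receptor gene *Unc5b* was also lower in the LM models, as given above. *Ntn1* was 19.5 ± 5.8, 10.4 ± 2.37 and 18.7 ± 2.04, near the level of *Unc5b* in LM9 (15.7 ± 3.74) and below it in HR1 (36.3 ± 9.11). *Neo1*, the gene of the netrin receptor neogenin, had means of 9.42 to 10.3 and passed no comparison.

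*Sema3c*, *Sema3f* and *Nrp2* had their highest mean levels in LM9, at 29.9 ± 2.11, 17.9 ± 0.478 and 45.7 ± 1.26 CPM per kb. *Sema4d* had its highest mean level in LM9, where its receptor gene had its lowest, with 1.75 ± 1.86, 1.59 ± 0.353 and 3.77 ± 0.464 for *Sema4d* and 0.326 ± 0.175, 0.103 ± 0.0211 and 0.0301 ± 0.00579 for *Plxnb1* in HR1, LM1 and LM9, and with all tumours *Plxnb1* alone of the pair passed the test. Of *Efnb2* and its receptor genes, *Ephb4* was 10.1 ± 5.12, 9.77 ± 0.494 and 15.0 ± 0.238 and *Ephb3* 8.19 ± 1.1, 4.57 ± 0.27 and 2.85 ± 0.285. In LM9, where *Efnb2* was highest, *Ephb4* was above and *Ephb3* below its level in LM1. *Slit2* (2.29 ± 0.313 in LM9) met little *Robo1* (0.0013 ± 0.00225), and *Robo2* at 1.77 ± 0.548 was the more abundant of its receptor genes there.

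**Figure D4:**
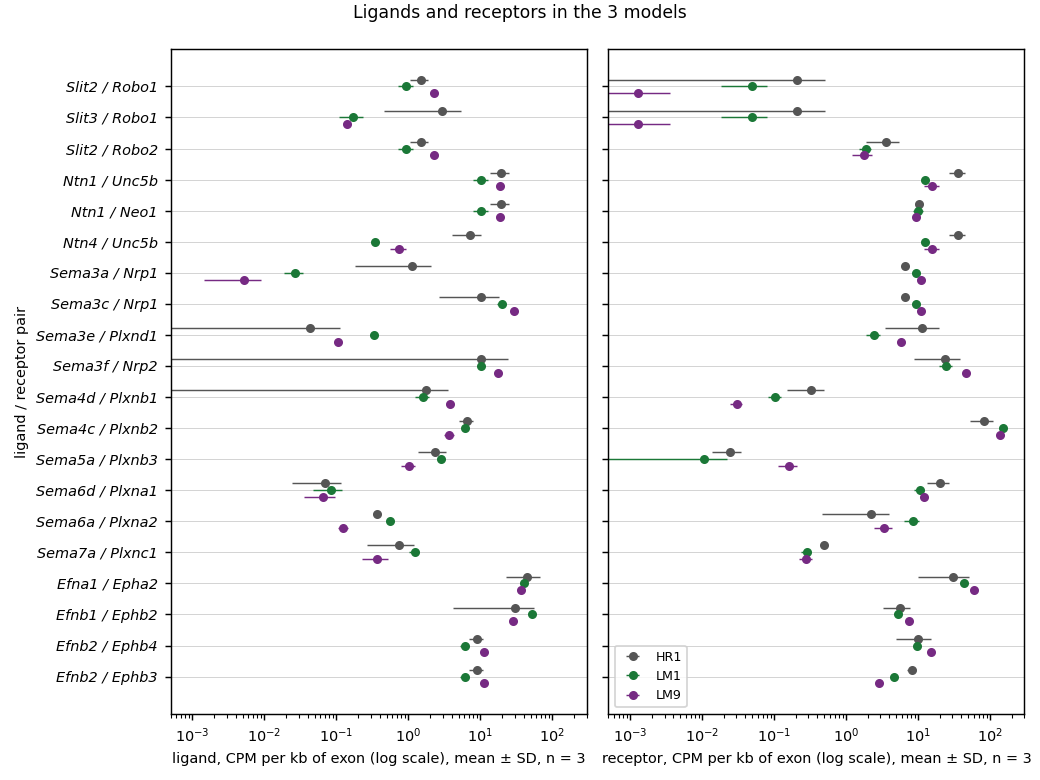
Mean level (points, CPM per kb of exon, log axis) with s.d. (bars, n = 3) of the ligand gene (left) and receptor gene (right) of 20 pairs in HR1, LM1 and LM9; bars that reach below the axis are cut off there. *Sema3a* spans from 1.11 CPM per kb in HR1 to 0.00529 in LM9 beside a receptor gene, *Nrp1*, at 6.67 to 11.1, and *Plxnb2* is the receptor gene farthest to the right.

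Other genes of the pathway (coreceptors, adhesion molecules, cytoplasmic adaptors and effectors) were taken from a list of 62, of which 55 were tested. In LM1 versus HR1 19 differed (9 higher and 10 lower), in LM9 versus HR1 31 (20 higher and 11 lower) and in LM9 versus LM1 14 (9 higher and 5 lower). Their shares, 34.5%, 56.4% and 25.5%, can be read against the 35.5%, 42.3% and 22.0% of all genes. Without the library labelled HR1 replicate 1 the counts were 33, 36 and 32 (60.0%, 65.5% and 58.2%), against 52.8%, 55.7% and 45.5% of all genes. *Rgma*, a repulsive ligand of neogenin, was 20.8, 24.2 and 22.9 CPM in HR1, 99.9, 103 and 85.2 CPM in LM1 and 61.6, 62.6 and 53.5 CPM in LM9. It differed in all comparisons, with log2 fold changes of 2.09 ± 0.14, 1.39 ± 0.13 and −0.70 ± 0.13 (edgeR adjusted p = 6.5e-05, 0.00019 and 0.0086). *Flrt3*, which binds UNC5 receptors and latrophilins, was 1.76 to 2.86 CPM in HR1, 18.1 to 20.4 CPM in LM1 and 8.38 to 10.7 CPM in LM9, again with no overlap. Among the effectors, the GTPase genes *Rac1*, *Cdc42* and *Rhoa* were lower in both LM models than in HR1. Their log2 fold changes were −0.48 ± 0.14, −0.60 ± 0.17 and −0.44 ± 0.15 in LM1 (edgeR adjusted p = 0.03, 0.025 and 0.043). In LM9 they were −0.84 ± 0.15, −1.03 ± 0.17 and −0.69 ± 0.15 (edgeR adjusted p = 0.0024, 0.0022 and 0.0066). Other effector genes were higher in LM9 than in HR1, among them *Ablim3* (2.67 ± 0.37), *Chn2* (2.54 ± 0.43) and *Srgap3* (2.12 ± 0.35). The genes of this list were named after their values were seen.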

How the data were processed

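RNA was measured in sorted GFP-positive cells of 9 tumours, 3 per model, with model and replicate number taken from the sample labels. The deposited tables hold whole-number counts per gene, not normalized. According to the methods, STAR was used by the authors to align the single-end reads (mm10), and QuasR counted 5′ ends over the union of a gene's exons. The strand setting of this counting is not given in the sources used here. The tables list genes by Entrez number, and the lowest third-highest count of any gene is 7, so weaker genes are not measured. Of 14108 genes, 14085 were named from RefSeq and 4 from GENCODE. Exon lengths came from the GENCODE annotation of GRCm38 and promoters from RefSeq. No pair of tumours differed as little as sampling noise.

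Counts were filtered by expression (14086 genes kept, 22 left out), scaled by TMM (factors 0.928 to 1.05) and fitted with edgeR 4.0.16 in R 4.3.3 (quasi-likelihood, robust, 1 model over the 3 groups), with Benjamini-Hochberg adjustment over all genes tested and a threshold of 0.05. The authors' limma-voom (limma 3.58.1) and DESeq2 1.42.0 were among the alternatives, with other size factors and filters, no robust fit, a 2-fold minimum, only the 6 tumours compared, a replicate block, and each tumour left out. The edgeR, DESeq2 and limma-voom fits were also run on simulated data, and the outcomes are not given here. Exact permutation tests were two-sided. Ratios against groups with 1 to 9 counts have exact 95% binomial intervals. They cover counting error only, since duplicates cannot be told from separate molecules.

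For each family and comparison, the 2 genes with the largest change were named among those past the threshold, averaging 1 CPM or more, with separate tumour ranges, plus the gene with the highest level per kb. The genes, gene lists and marker lists were chosen with earlier results of these data known. Other genes were named after their values were seen. Figures were drawn with matplotlib 3.10.9.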

Additional observations from a re-analysis of the deposited data

Results flagged for a closer look

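For 9 genes named by the rule, the difference from HR1 was not the same in LM1 and LM9, as tested by LM9 versus LM1 (quasi-likelihood test of edgeR, Benjamini-Hochberg adjusted). The difference between the 2 log2 fold changes (LM9 minus LM1) was −9.43 for *Ephb1* (adjusted p = 0.0006), −5.04 for *Plxna4* (0.018), −2.17 for *Sema6a* (0.002), −1.76 for *Plxnb1* (0.032), −1.50 for *Sema5a* (0.009) and −0.68 for *Ephb3* (0.015). It was 1.29 for *Slit2* (0.0089), 0.88 for *Efnb2* (0.012) and 0.85 for *Ntn1* (0.04). *Ephb1* had log2 fold changes of 7.78 and −1.65 in LM1 and LM9 (the latter −4.74 to −0.34 with single tumours left out), and *Plxna4* of 1.78 (adjusted p = 0.19) and −3.26. For *Ephb3* and *Plxnb1* both models were below HR1 and LM9 was further below. The rule that named these genes required separate tumour ranges and a passed test, so these values describe them and are no further support. No single deviating tumour was tested for, since each model has 3.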

How the results depend on the processing

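With all tumours, 22, 24 and 16 of the 58 genes differed in LM1 versus HR1, LM9 versus HR1 and LM9 versus LM1. Using only the 6 tumours compared gave 11, 15 and 38, the last beside 56.3% of all genes (22.0% with all tumours). In LM9 versus LM1, DESeq2 gave 25 genes and a 2-fold minimum 10. The cause of these shifts was not tested. Leaving out single tumours, the counts ranged from 11 to 30, from 14 to 32 and from 6 to 35. The share of all genes was 52.8%, 55.7% and 45.5% without the library labelled HR1 replicate 1. For the remaining settings it is not given, so their counts describe the 58 genes alone. Of the called genes, 10 of 22, 14 of 24 and 6 of 16 kept their call in every such fit, and none changed sign. Without the library labelled HR1 replicate 1, 21, 24 and 16 were kept and 9, 8 and 19 were gained. The replicate numbers did not pair the tumours (correlations of same-numbered deviations −0.117 to 0.162); with a replicate block 19, 17 and 13 genes differed. Of 28 results of named genes, 17 passed the threshold under all alternatives run, and 21 under those that kept all tumours of the models compared; none was reversed. With no tumour of the compared models left out, *Sema6c*, *Plxna2*, *Plxnc1*, *Plxnb1*, *Robo1*, *Ntn1* and *Efna2* lost a call under 1 or more settings. Genes under 1 CPM rest on few reads. The median log2 fold change of the 58 genes moved by more than its spread in 12 of the fits; in LM9 versus HR1 it went from −0.07 to 0.09 with only the 6 tumours compared and to 0.13 with the replicate block.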
